A study of Mus musculus with 12 samples.

Results

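Collagens are the triple-helical proteins of the extracellular matrix, and this account describes their genes in whole mouse skin, uninjured or 14 days after injury. Members were the protein-coding genes whose symbol is Col, a number, a and a number, after Ensembl IDs were matched to GENCODE M21. The rule gave 44 genes of the 53379 gene IDs in the counts. They were grouped by structure into 11 fibrillar genes, 6 genes of basement membrane type IV, 6 of beaded-filament type VI and 9 FACIT genes (fibril-associated collagens with interrupted helices). The other members were 4 transmembrane collagens, 3 short-chain network genes (types VIII and X), 2 multiplexins (types XV and XVIII), the anchoring-fibril gene Col7a1, and Col26a1 and Col28a1. All 44 genes passed the expression filter, so none is left out of the tests.

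As background, each collagen molecule is a trimer of alpha chains, which may come from a single gene or from several. Fibrillar types I, III and V build the fibres of the dermis, which fibroblasts secrete, and FACIT molecules sit on the surface of those fibres. Type IV forms the sheet of basement membranes, type VII anchors that sheet to the dermis, and transmembrane type XVII holds basal keratinocytes to it. Type VI filaments link cells and basement membranes to the interstitial matrix. New collagen is laid down in healing skin, and the benign skin tumours of neurofibromatosis are rich in it.

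The 12 libraries came from 3-month-old mice of strain C57BL/6 & B6D2, with 3 libraries in each of 4 groups. Every mouse carried Prss56Cre, in which the Prss56 promoter drives Cre, and the R26tdTom reporter. Control mice carried nothing further, and Nf1-KO mice carried Nf1flox/- in addition, that is a floxed and a null allele of Nf1, the gene for the RAS inhibitor neurofibromin. The groups were uninjured control, uninjured Nf1-KO, injured control and injured Nf1-KO skin, the injured ones 14 days after injury. An Nf1 allele is therefore missing in every cell of Nf1-KO mice, whether or not it expressed Cre, and whole skin holds many cells outside the boundary cap lineage in which the series title places the knockout. The labels do not say that the 3 libraries of a group come from separate animals, so p-values measure the spread between these libraries.

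Library totals ran from 8817013 to 16809687 counts. Nf1 stood at 8.75 to 16.6 CPM (read counts scaled by TMM to a common library size) over the 12 libraries, and its log2 fold change in Nf1-KO skin was -0.31 in uninjured and -0.11 in injured skin (edgeR adjusted p = 0.884 and 0.989). A total per gene cannot show recombination, and the genotype labels are thus not tested by it. Sex markers split by skin state in both genotypes: the female marker Xist stood at 0.709 to 2.95 raw CPM in uninjured and 436 to 627 in injured libraries, and the male marker Ddx3y at 68.2 to 93.3 and 0 to 0.0595. Injury and sex therefore cannot be told apart here. Olfactory and vomeronasal receptor genes, which skin is not known to use, served as background and stood at 0.0942 to 0.331 CPM per kb in uninjured and 0.00223 to 0.0530 in injured libraries. Control uninjured libraries 1 and 2 had the highest background of all, 0.331 and 0.262. The skin label was borne out by its markers: 7 basal keratinocyte genes (Krt5, Krt14, Krt15, Itga6, Itgb4, Trp63, Lamb3) summed to 7631 to 24380.2 CPM and 7 fibroblast genes (Pdgfra, Pdgfrb, Dcn, Lum, Dpt, Thy1, Twist2) to 166 to 2963.

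Promoter windows are shown for 5 genes that carry the pattern described below: Col4a2 and Col4a1, a divergent pair that rose together, Col1a2 and Col8a1, which rose, and Col17a1, which fell. Each is the RefSeq window of GRCm38.p6, 5′ to 3′ on the gene's own strand, with 250 bases before and 50 after the annotated start. Capitals mark every match, on either strand, to the CCAAT box (CCAAT) and to the GC box (GGGCGG) and the TATA box (TATAAA), so the reverse complement of each is capitalised too, and matches may overlap.
Col4a2 (chr8:11312555-11312854, plus strand): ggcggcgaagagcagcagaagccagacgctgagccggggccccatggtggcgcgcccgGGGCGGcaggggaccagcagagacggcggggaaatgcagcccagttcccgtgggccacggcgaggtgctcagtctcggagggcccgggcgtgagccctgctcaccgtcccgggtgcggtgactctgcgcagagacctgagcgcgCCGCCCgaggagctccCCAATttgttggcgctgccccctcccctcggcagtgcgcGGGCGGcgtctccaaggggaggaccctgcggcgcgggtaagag
Col4a1 (chr8:11312777-11313076, minus strand): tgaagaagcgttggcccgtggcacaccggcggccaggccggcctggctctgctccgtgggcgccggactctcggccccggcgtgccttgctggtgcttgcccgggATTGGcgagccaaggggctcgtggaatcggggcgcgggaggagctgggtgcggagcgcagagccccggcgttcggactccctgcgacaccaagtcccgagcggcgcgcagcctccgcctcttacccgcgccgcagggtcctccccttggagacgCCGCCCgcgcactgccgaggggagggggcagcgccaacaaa
Col1a2 (chr6:4505368-4505667, plus strand): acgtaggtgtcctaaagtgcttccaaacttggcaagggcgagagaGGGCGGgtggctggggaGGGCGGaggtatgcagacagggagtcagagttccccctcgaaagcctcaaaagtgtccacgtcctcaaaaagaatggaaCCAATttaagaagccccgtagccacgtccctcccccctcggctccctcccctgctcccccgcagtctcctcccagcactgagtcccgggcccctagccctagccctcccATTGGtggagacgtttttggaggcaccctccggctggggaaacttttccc
Col8a1 (chr16:57754688-57754987, minus strand): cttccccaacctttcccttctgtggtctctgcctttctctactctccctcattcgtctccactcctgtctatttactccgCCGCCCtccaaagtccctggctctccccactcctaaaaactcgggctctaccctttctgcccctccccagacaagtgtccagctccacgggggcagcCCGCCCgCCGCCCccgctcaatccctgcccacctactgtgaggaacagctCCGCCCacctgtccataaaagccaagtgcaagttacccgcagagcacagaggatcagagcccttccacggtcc
Col17a1 (chr19:47691993-47692292, minus strand): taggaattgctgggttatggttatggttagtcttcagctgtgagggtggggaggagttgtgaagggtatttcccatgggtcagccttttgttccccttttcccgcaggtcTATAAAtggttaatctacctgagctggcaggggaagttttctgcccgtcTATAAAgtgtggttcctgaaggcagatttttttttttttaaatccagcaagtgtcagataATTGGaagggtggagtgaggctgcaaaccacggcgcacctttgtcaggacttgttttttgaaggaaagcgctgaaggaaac
The starts of Col4a2 and Col4a1 lie 21 bases apart on opposite strands, so both windows read the same DNA from opposite sides over part of their length. Col4a2 held 3 matches to GGGCGG and 1 to CCAAT, Col4a1 1 of each, Col1a2 2 of each, and Col8a1 4 matches to GGGCGG and no CCAAT. Col17a1 held 2 matches to TATAAA, 1 to CCAAT and none to GGGCGG. RefSeq windows were found for 35 of the 44 genes, 38 windows in all, and those of Col1a1, Col2a1, Col4a3, Col5a2, Col9a3, Col12a1, Col14a1, Col22a1 and Col26a1 were not used here. GGGCGG was present in 60.5% of the 38 collagen windows and in 35.7% of all 32851 windows, CCAAT in 34.2% and 37.4%, and TATAAA in 13.2% and 13.6%. Among the 14 windows of genes that rose in both genotypes 10 held GGGCGG, and among the 4 windows of genes that fell in both 3 did. A match is a description of the sequence and not a binding site.

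Injured skin, compared with uninjured skin of the same genotype, had higher levels of the type I, III and V chains and of Col6a1, Col6a2 and Col6a3 and lower levels of Col17a1, Col23a1 and of Col4a3, Col4a5 and Col4a6. In control skin 17 of the 44 genes rose and 11 fell, where a gene counts as changed at edgeR adjusted p under 0.05 over all 23635 genes tested. Of all genes tested there, 22.8% rose and 32.5% fell, 55.3% in all. In Nf1-KO skin 21 of the 44 rose and 5 fell, against 19.1% and 18.4% of all genes tested, 37.4% in all. The median log2 fold change of the collagens was 0.45 in control and 1.00 in Nf1-KO skin, while that of all genes tested was -0.21 and -0.09. Both comparisons use different libraries, and 40 of the 44 genes had the same sign in both.

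The 17 genes that rose in control skin also rose in Nf1-KO skin, where they made up 81% of those that rose. They were Col1a1, Col1a2, Col3a1, Col5a1, Col5a2, Col5a3 and Col11a1 (fibrillar), Col4a1 and Col4a2, Col6a1, Col6a2, Col6a3 and Col6a6, Col8a1, Col12a1 and Col14a1 (FACIT), and Col15a1. Genes that fell in both were Col4a3, Col4a5, Col4a6, Col17a1 and Col23a1, which are 45.5% of those that fell in control skin and 100% of those that fell in Nf1-KO skin. A further 6 passed the test for a fall in control skin alone (Col2a1, Col19a1, Col20a1, Col22a1, Col25a1, Col26a1) and 4 for a rise in Nf1-KO skin alone (Col9a3, Col16a1, Col18a1, Col27a1), but none of these differed between the genotypes in its injury response by the test of that difference. The remaining 12 passed in neither. Groups did not overlap for 19 collagens higher and 10 lower after injury in control skin (all genes tested: 25.8% and 36.6%) and for 20 and 9 in Nf1-KO skin (23.6% and 27.9%). Levels of 16 genes were higher in every one of the 6 injured libraries than in any of the 6 uninjured ones, and those of 8 were lower in every one (all genes tested: 15.1% and 19.1%). Without control uninjured libraries 1 and 2, which had the highest background, 10 genes rose and 4 fell in control skin. That fit leaves 1 uninjured control library, which is assumed to vary like the libraries of the other groups, and the part of the background in the lost calls was not tested. The genes whose rise was then lost were Col1a1 (adjusted p = 0.0865), Col3a1 (0.268), Col5a1 (0.0772), Col5a2 (0.0601), Col6a1 (0.113), Col6a2 (0.117) and Col6a3 (0.0554), with log2 fold changes of 1.15 to 3.45 in edgeR. Their direction was the same, and the comparison in Nf1-KO skin does not contain those 2 libraries.

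**Figure D1:**
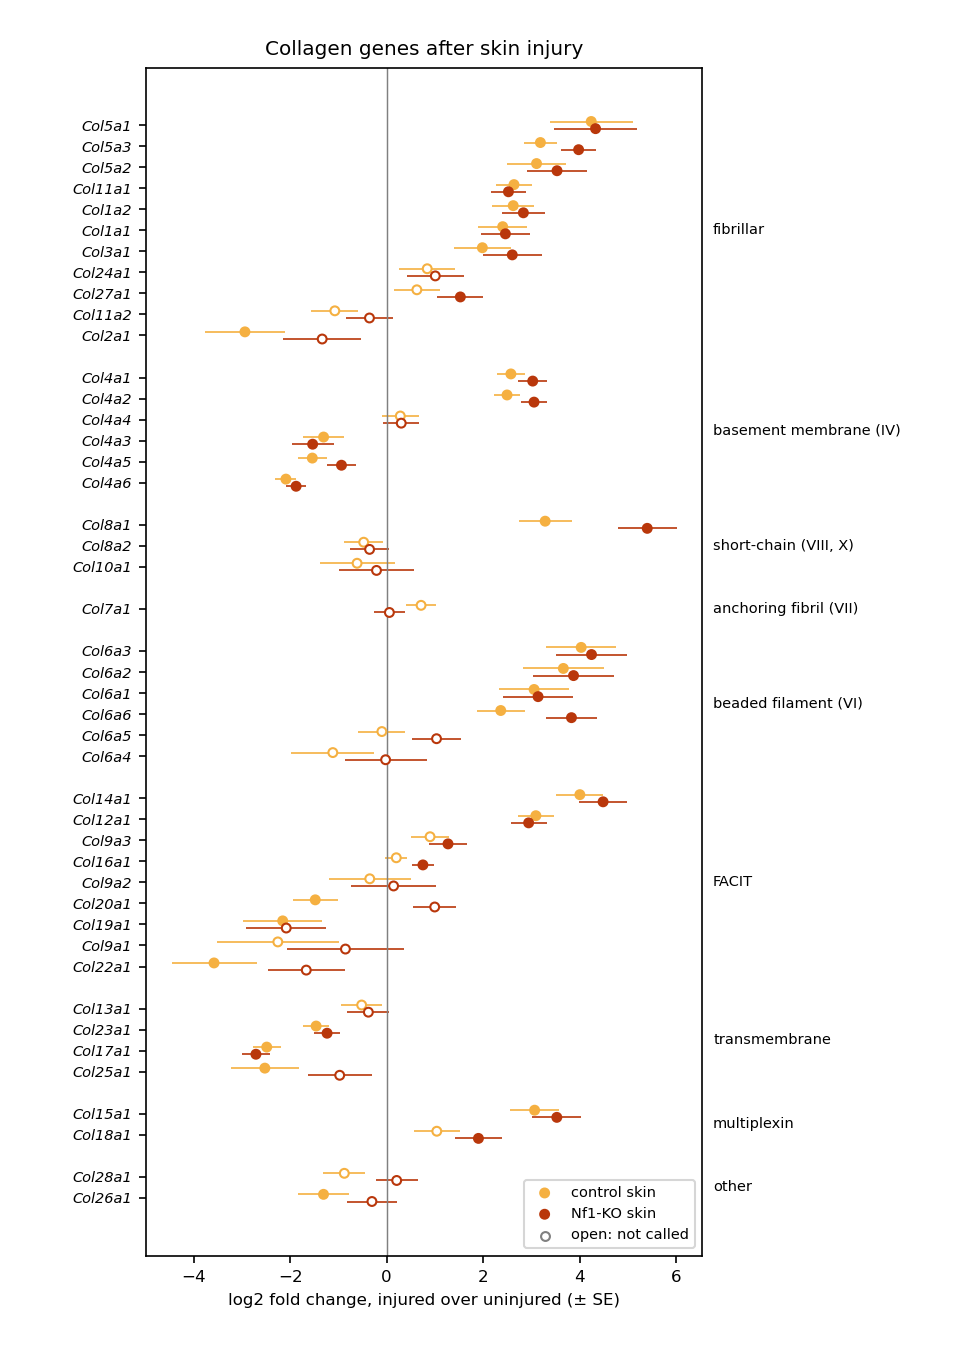
Log2 fold change of each collagen gene, injured over uninjured skin, in control and Nf1-KO skin (x axis; bars are standard errors, 3 libraries a group), grouped by structural type; filled points passed edgeR adjusted p under 0.05 and open points did not. Filled points lie to the right for 17 genes in control and 21 in Nf1-KO skin, among them Col5a1 (4.24 and 4.33) and Col8a1 (3.28 and 5.40), and to the left for 11 and 5, among them Col17a1 (-2.48 and -2.71).

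Collagen genes together took 0.366%, 0.379% and 0.619% of all counts in libraries 1 to 3 of uninjured control skin and 0.427%, 0.289% and 0.420% in uninjured Nf1-KO skin. The share was 0.723%, 1.83% and 1.28% in injured control and 1.26%, 1.07% and 2.11% in injured Nf1-KO skin. Every injured library was thus above every uninjured one, and the group means were 0.455 ± 0.142%, 0.379 ± 0.0780%, 1.27 ± 0.551% and 1.48 ± 0.556% (SD, n = 3). The make-up changed as well: Col1a1, Col1a2 and Col3a1 supplied 33.2% to 51.6% of collagen counts in uninjured and 61.2% to 74.4% in injured libraries. The 4 transmembrane genes moved the other way, from 0.134% to 0.191% of all counts in uninjured control and 0.111% to 0.136% in uninjured Nf1-KO libraries to 0.0195% to 0.0322% in injured control and 0.0156% to 0.0248% in injured Nf1-KO libraries.

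**Figure D2:**
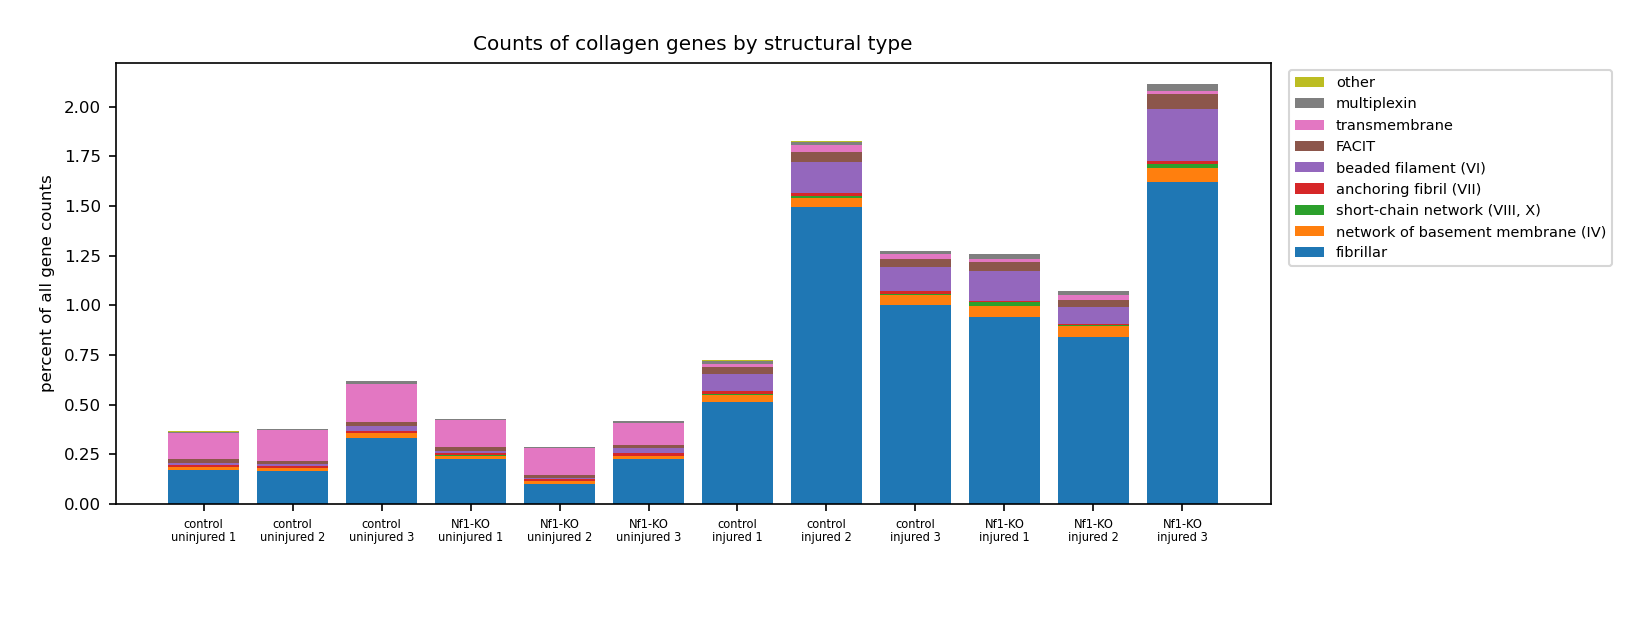
Percent of all gene counts that fell on collagen genes in each of the 12 libraries (stacked bars, y axis from 0), coloured by structural type. The 6 uninjured bars end between 0.289% and 0.619% with a broad transmembrane part, and the 6 injured bars end between 0.723% and 2.11% and are mostly fibrillar.

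Of the 11 fibrillar genes, 7 rose and 1 (Col2a1) fell in control skin, and 8 rose in Nf1-KO skin. Values per library are given in the order 1 to 3 from here on, in TMM-normalised CPM. Col1a1 (ENSMUSG00000001506, mm10 chromosome 11, 94936224 to 94953042), the alpha1 chain of type I collagen, stood at 308, 309.8 and 716 CPM in uninjured control, 524, 219 and 631 in uninjured Nf1-KO, 1366, 3426 and 2263 in injured control and 1978, 1673 and 3904 in injured Nf1-KO skin. The lowest injured library was above the highest uninjured one. Its group means were 445 ± 235, 458 ± 214, 2351 ± 1033 and 2518 ± 1209.8 CPM (SD, n = 3), a log2 fold change of 2.40 (SE 0.50, edgeR adjusted p = 0.00163) in control and 2.46 (SE 0.50, adjusted p = 0.00235) in Nf1-KO skin. Col1a2 (ENSMUSG00000029661, chromosome 6, 4504814 to 4541544), its partner chain, stood at 553, 560.5 and 1015 CPM in uninjured control, 849, 378 and 951 in uninjured Nf1-KO, 2555, 6022 and 4509 in injured control and 4361, 3377 and 7761 in injured Nf1-KO skin. Again no injured library overlapped an uninjured one, with log2 fold changes of 2.62 (SE 0.43, edgeR adjusted p = 0.000265) and 2.83 (SE 0.44, adjusted p = 0.000177).

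Col3a1 (ENSMUSG00000026043, chromosome 1, 45311538 to 45349706), the only chain of type III, which shares fibres with type I, stood at 463, 473 and 1397 CPM in uninjured control and 595, 267 and 660.3 in uninjured Nf1-KO skin. After injury it stood at 1064, 5012 and 3139 CPM in control and 2162, 3154 and 3922 in Nf1-KO skin. Control uninjured library 3 was above control injured library 1, so those groups overlapped, while the Nf1-KO groups did not. It rose by log2 1.98 (SE 0.59, edgeR adjusted p = 0.0143) in control and 2.60 (SE 0.61, adjusted p = 0.00662) in Nf1-KO skin. The rise in control skin did not pass the test without control uninjured library 2 (log2 1.73, edgeR adjusted p = 0.0524) or control injured library 2 (1.47, adjusted p = 0.0570). In the fit of control groups alone it was 1.96 (adjusted p = 0.0673).

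Type V chains, which set the diameter of type I fibrils, had larger fold changes than type I from lower starting levels. Col5a1 (ENSMUSG00000026837, chromosome 2, 27886425 to 28039514) stood at 30.4, 20.8 and 70.2 CPM in uninjured control, 33.4, 15.6 and 118 in uninjured Nf1-KO, 539, 905 and 847 in injured control and 986, 507 and 1846 in injured Nf1-KO skin. Library 3 was the highest of both uninjured groups, yet far below the injured range. Its log2 fold changes were 4.24 (SE 0.86, edgeR adjusted p = 0.00271) and 4.33 (SE 0.86, adjusted p = 0.00425). Col5a2 (ENSMUSG00000026042, chromosome 1, 45374321 to 45503282) stood at 24.1, 14.2 and 48.1 CPM in uninjured control, 19.0, 12.5 and 43.6 in uninjured Nf1-KO, 134, 354 and 256 in injured control and 239, 204 and 422 in injured Nf1-KO skin. No injured library overlapped an uninjured one, and the log2 fold changes were 3.10 (SE 0.62, edgeR adjusted p = 0.00213) and 3.53 (SE 0.63, adjusted p = 0.00194). Col5a3 (ENSMUSG00000004098, chromosome 9, 20770050 to 20815067), a further chain of the type, stood at 8.56, 9.75 and 17.3 CPM in uninjured control, 14.5, 9.58 and 11.5 in uninjured Nf1-KO, 82.6, 132 and 111 in injured control and 192, 106 and 261 in injured Nf1-KO skin. Its libraries of each state lay well apart, with log2 fold changes of 3.18 (SE 0.35, edgeR adjusted p = 1.12e-05) and 3.97 (SE 0.36, adjusted p = 1.65e-06).

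Col11a1, a chain of the minor fibrillar type XI best known from cartilage, rose from 4.50 ± 1.92 to 27.7 ± 4.15 CPM in control skin (log2 2.64, edgeR adjusted p = 6.44e-05, n = 3) and from 4.40 ± 2.61 to 25.2 ± 4.91 in Nf1-KO skin (log2 2.52, edgeR adjusted p = 9.22e-05, n = 3). Col2a1, the main collagen of cartilage, stood at 1.25 to 3.76 CPM in uninjured and 0 to 0.947 in injured libraries, and fell in control skin (log2 -2.94, edgeR adjusted p = 0.00702) but did not pass in Nf1-KO skin (-1.34, adjusted p = 0.198). Col11a2 stood at 0.823 to 4.89 CPM in all libraries and passed in neither genotype, but it fell in control skin without control uninjured library 3 (log2 -1.23, edgeR adjusted p = 0.0468) or control injured library 1 (-1.47, adjusted p = 0.0342). The 6 cartilage markers (Acan, Matn1, Matn3, Cnmd, Hapln1, Comp) summed to 4.80 to 15.1 CPM in uninjured and 6.03 to 10.1 in injured libraries, with Matn1 at 0 in all 3 injured control libraries. Of the 4 cartilage markers tested 2 fell in control and 1 in Nf1-KO skin, and none rose. Of 4 bone markers (Bglap, Ibsp, Sp7, Dmp1) 2 were tested and neither passed, with a sum of 1.07 to 3.76 CPM over all libraries. Col27a1, a fibrillar gene of developing cartilage, rose in Nf1-KO skin only by test (log2 1.53, edgeR adjusted p = 0.0256) with overlapping groups, and not without Nf1-KO injured library 3 (0.75, adjusted p = 0.0979) or any one of the uninjured Nf1-KO libraries (adjusted p = 0.0544 to 0.0963). In control skin the Col27a1 groups did not overlap (log2 0.62, edgeR adjusted p = 0.282), and it passed there without Nf1-KO injured library 2 (0.66, adjusted p = 0.0463). Col24a1 did not pass in either.

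The rise of the fibrillar genes went along with a rise of fibroblast markers. All 7 of 7 rose in both genotypes, and their sum was 166 to 349 CPM in uninjured and 1187 to 2963 in injured libraries, with none at 0. Markers of other cells rose as well: 7 of 7 genes of the growing hair follicle (20.3 to 65.0 CPM as a sum in uninjured, 5668 to 19085 in injured libraries), 5 of 5 of adipocytes (46.8 to 218 and 819 to 1825) and, of 5 of pericytes and smooth muscle, 3 in control and 4 in Nf1-KO skin (148 to 421 and 423 to 965), also with none at 0. Of the pericyte and smooth muscle genes 1, Myh11, fell in both genotypes. Myh11 stood at 39.3, 44.2 and 83.2 CPM in uninjured control and 6.13, 19.5 and 9.62 in injured control skin. In bulk skin, fewer cells of a type and less RNA per cell cannot be told apart, and the part of these cells' numbers in the changes was not tested.

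**Figure D3:**
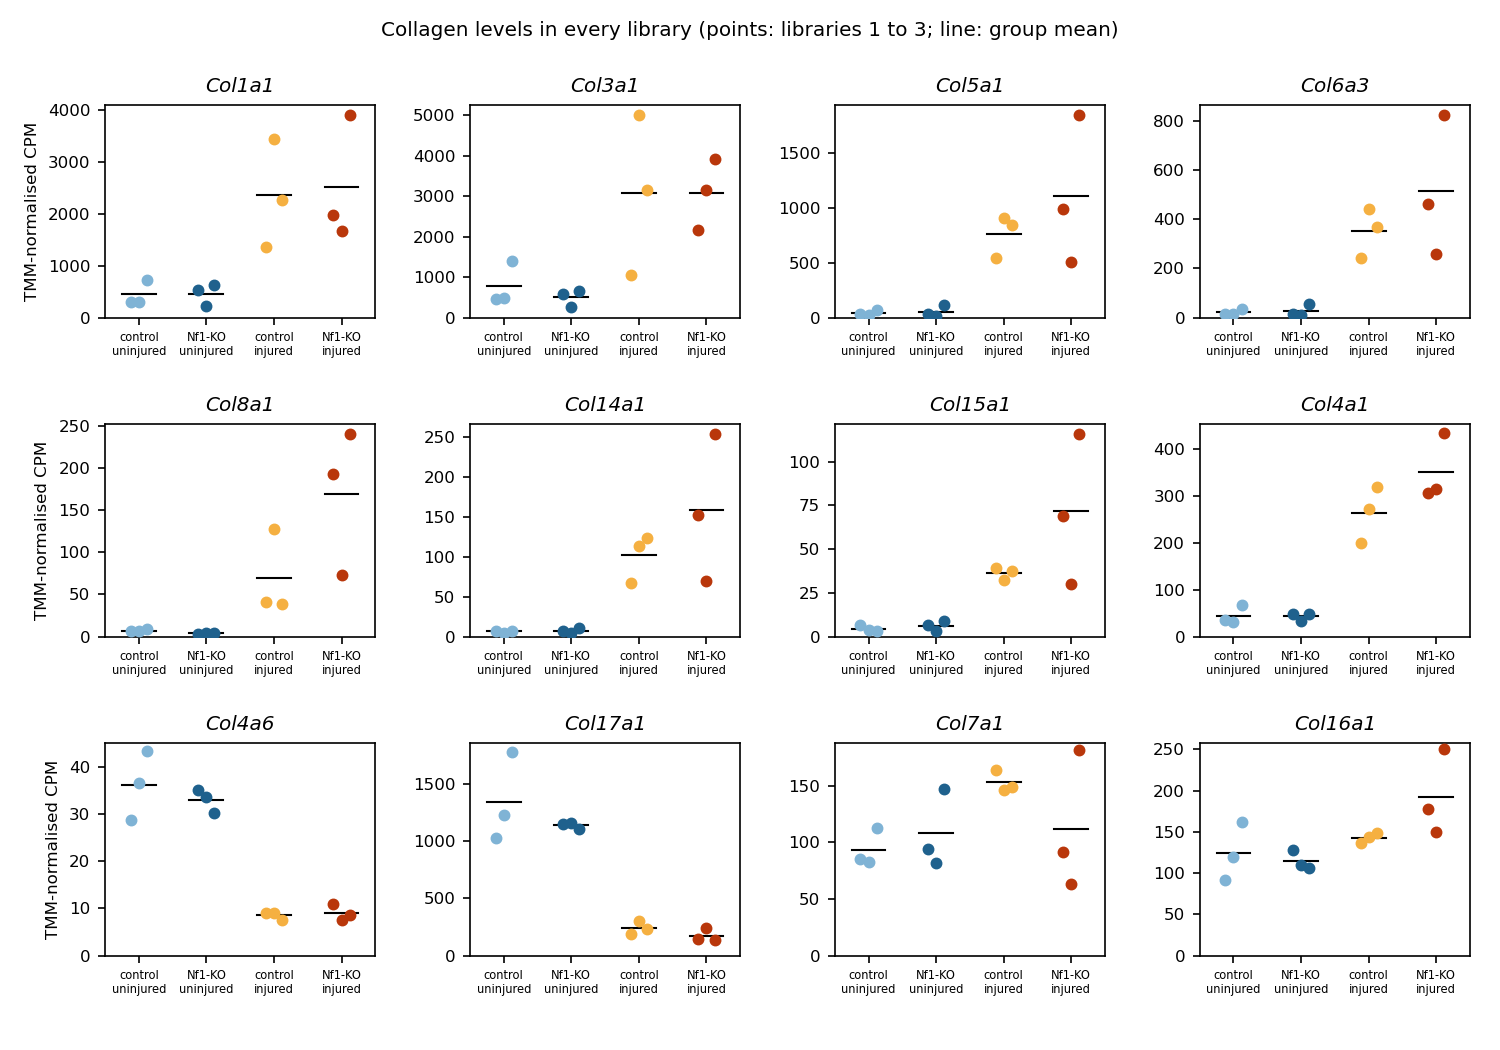
TMM-normalised CPM (y axes from 0) of 12 collagen genes in each library (points, libraries 1 to 3 from left to right) of the 4 groups, with the group mean as a line. Injured libraries lie above uninjured ones for Col1a1, Col5a1, Col6a3, Col8a1, Col14a1, Col15a1 and Col4a1 and below them for Col4a6 and Col17a1, while groups overlap for Col3a1, Col7a1 and Col16a1.

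The type IV genes split in 2 directions. Col4a1 and Col4a2, whose chains make up the network found under most epithelia and around vessels, rose in both genotypes, whereas Col4a3, Col4a5 and Col4a6 fell in both. Col4a1 (ENSMUSG00000031502, chromosome 8, 11198423 to 11312826) stood at 35.5, 30.9 and 66.3 CPM in uninjured control, 47.1, 33.7 and 48.6 in uninjured Nf1-KO, 199, 272 and 319.5 in injured control and 306, 314 and 433 in injured Nf1-KO skin. Each injured library was at least 199 CPM and each uninjured one at most 66.3. The log2 fold changes were 2.57 (SE 0.29, edgeR adjusted p = 9.98e-06) and 3.02 (SE 0.30, adjusted p = 1.96e-06). Col4a2 (ENSMUSG00000031503, chromosome 8, 11312805 to 11449287) stood at 28.3, 29.2 and 48.2 CPM in uninjured control, 28.9, 25.6 and 42.4 in uninjured Nf1-KO, 177, 198 and 220.3 in injured control and 247, 207 and 349 in injured Nf1-KO skin. Its log2 fold changes of 2.49 (SE 0.27, edgeR adjusted p = 6.62e-06) and 3.05 (SE 0.28, adjusted p = 9.64e-07) were close to those of its neighbour. The pair shares 22 exonic bases on opposite strands, which counts without strand cannot divide. The 4 blood endothelium markers (Pecam1, Cdh5, Kdr, Emcn) also rose, 4 of 4 in both genotypes, from 31.1 to 56.2 CPM in uninjured to 93.3 to 195 in injured libraries as a sum.

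Col4a5 and Col4a6, which form the other network of skin basement membranes, lie head to head on chromosome X with starts 1309 bases apart. Col4a6 (ENSMUSG00000031273, chromosome X, 141165403 to 141474076) stood at 28.8, 36.5 and 43.3 CPM in uninjured control, 35.1, 33.6 and 30.2 in uninjured Nf1-KO, 8.98, 9.05 and 7.55 in injured control and 10.8, 7.55 and 8.52 in injured Nf1-KO skin. The states were widely separated, with log2 fold changes of -2.09 (SE 0.22, edgeR adjusted p = 4.49e-06) and -1.88 (SE 0.22, adjusted p = 8.64e-06). Col4a5 ranged from 17.3 to 39.8 CPM in uninjured and 4.91 to 14.5 in injured libraries, with log2 fold changes of -1.54 (SE 0.31, edgeR adjusted p = 0.000773) and -0.94 (SE 0.30, adjusted p = 0.0245). The fall of Col4a5 in Nf1-KO skin did not pass without Nf1-KO uninjured library 1 (edgeR adjusted p = 0.0725), Nf1-KO injured library 1 (0.0717) or Nf1-KO injured library 3 (0.0583). Both genes were lower in the injured libraries, which carry female markers, so injury and sex cannot be told apart for them. Col4a3 and Col4a4, chains best known from the kidney, start 72 bases apart on chromosome 1 but did not move alike. Col4a3 fell from 4.74 ± 0.878 to 1.90 ± 0.262 CPM in control skin (log2 -1.31, edgeR adjusted p = 0.0155, n = 3) and from 4.40 ± 0.947 to 1.54 ± 0.902 in Nf1-KO skin (log2 -1.53, edgeR adjusted p = 0.0119, n = 3), whereas Col4a4 had log2 values of 0.28 and 0.30 (adjusted p = 0.554 and 0.543). The Col4a3 call is fragile: in control skin it did not pass without control uninjured library 1 (edgeR adjusted p = 0.0522), control uninjured library 2 (0.0519) or control injured library 1 (0.0525), nor in Nf1-KO skin without Nf1-KO injured library 1 (0.0701). Col4a3 also shares 563 exonic bases with the opposite-strand transcript C430014B12Rik, which holds 866 counts over the 12 libraries against 480 for Col4a3, so its level is uncertain.

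Among type VI genes, the 3 classical chains and Col6a6 rose in both genotypes, and Col6a4 and Col6a5 passed in neither. Col6a1 (ENSMUSG00000001119, chromosome 10, 76708792 to 76726168) stood at 30.8, 26.1 and 96.0 CPM in uninjured control, 43.9, 22.6 and 110.3 in uninjured Nf1-KO, 274, 566 and 431 in injured control and 430.4, 301 and 821 in injured Nf1-KO skin. Its rise was log2 3.05 (SE 0.73, edgeR adjusted p = 0.00602) and 3.14 (SE 0.73, adjusted p = 0.00912). Col6a2 (ENSMUSG00000020241, chromosome 10, 76595762 to 76623630), the neighbour of Col6a1, stood at 27.7, 21.8 and 74.8 CPM in uninjured control, 33.0, 13.3 and 103 in uninjured Nf1-KO, 426, 638 and 509 in injured control and 634, 329.6 and 1211 in injured Nf1-KO skin. Its log2 fold changes were 3.66 (SE 0.84, edgeR adjusted p = 0.00516) and 3.87 (SE 0.85, adjusted p = 0.00703). Col6a3 (ENSMUSG00000048126, chromosome 1, 90765923 to 90843971), the longest chain of the trimer, stood at 14.7, 14.1 and 35.5 CPM in uninjured control, 15.9, 11 and 54.9 in uninjured Nf1-KO, 244, 441 and 367 in injured control and 462, 259.7 and 825 in injured Nf1-KO skin. The rise was log2 4.03 (SE 0.73, edgeR adjusted p = 0.0014) and 4.24 (SE 0.73, adjusted p = 0.00178). For all 3 chains no injured library overlapped an uninjured one, and library 3 was the highest of both uninjured groups. When the percent of counts on ribosomal RNA-like genes entered the model, the rise of Col6a1 in Nf1-KO skin did not pass (log2 2.78, edgeR adjusted p = 0.0567).

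Col6a6, a chain that can stand in for Col6a3, stood at 0.947 to 3.29 CPM in uninjured and 10.2 to 49.8 in injured libraries. Its uninjured levels were 1.12 to 2.15 times the receptor background, whose part in the size of the fold change was not tested. It rose by log2 2.36 (SE 0.50, edgeR adjusted p = 0.00145) in control and 3.83 (SE 0.52, adjusted p = 7.55e-05) in Nf1-KO skin. Its relatives Col6a5 (1.08 to 5.85 CPM) and Col6a4 (0 to 3.67 CPM) lie beside it on chromosome 9, and their log2 values were -0.10 and -1.12 in control and 1.03 and -0.02 in Nf1-KO skin, none of which passed.

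Type VIII is a short-chain collagen of vessel walls and other specialised basement membranes. Its alpha1 gene Col8a1 (ENSMUSG00000068196, chromosome 16, 57624258 to 57754737) stood at 6.58, 6.29 and 8.39 CPM in uninjured control, 3.23, 4.67 and 4.07 in uninjured Nf1-KO, 41.6, 128 and 38.2 in injured control and 193, 73.2 and 240.4 in injured Nf1-KO skin. Injured libraries of both genotypes were above every uninjured one. The log2 fold change was 3.28 (SE 0.55, edgeR adjusted p = 0.000798) in control and 5.40 (SE 0.61, adjusted p = 8.66e-05) in Nf1-KO skin, where no other collagen rose by more. Col8a2, whose chain can join the same trimers, stood at 7.23 to 11.6 CPM in uninjured and 3.02 to 12.7 in injured libraries and passed in neither genotype, although it fell in control skin without control injured library 2 (log2 -1.27, edgeR adjusted p = 0.00845). Col10a1, of growing cartilage, stayed between 0.178 and 0.941 CPM in all libraries and passed in neither.

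Col7a1 (ENSMUSG00000025650, chromosome 9, 108953586 to 108984875), the sole gene of the anchoring fibrils that tie epidermis to dermis, stood at 85.1, 82.2 and 113 CPM in uninjured control, 93.7, 82.1 and 147 in uninjured Nf1-KO, 164, 146 and 149 in injured control and 91.0, 63.3 and 182 in injured Nf1-KO skin. Injured control libraries were above the uninjured control ones, but the Nf1-KO groups overlapped widely. The log2 fold change was 0.71 (SE 0.32, edgeR adjusted p = 0.0674) in control and 0.06 (SE 0.31, adjusted p = 0.903) in Nf1-KO skin, so it passed in neither. In control skin it did pass without control uninjured library 3 (log2 0.98, edgeR adjusted p = 0.0264), without any one of the 6 Nf1-KO libraries (adjusted p = 0.00775 to 0.0479), without a filter (log2 0.90, adjusted p = 0.000334) and with control groups fitted alone (0.68, adjusted p = 0.00577).

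Col17a1 (ENSMUSG00000025064, chromosome 19, 47646344 to 47692094), the hemidesmosome collagen of basal keratinocytes, fell in both genotypes. It stood at 1029, 1226 and 1775 CPM in uninjured control, 1149, 1154 and 1105 in uninjured Nf1-KO, 189.8, 300.3 and 229.9 in injured control and 141, 242 and 139 in injured Nf1-KO skin. The uninjured minimum of 1029 CPM was far above the injured maximum of 300.3. Group means were 1343 ± 387, 1136 ± 26.7, 240.0 ± 55.9 and 174 ± 59.1 CPM (SD, n = 3), a log2 fold change of -2.48 (SE 0.29, edgeR adjusted p = 1.1e-05) in control and -2.71 (SE 0.29, adjusted p = 4.05e-06) in Nf1-KO skin. Most markers of basal keratinocytes moved with it: 6 of 7 fell in both genotypes, with a median log2 fold change of -1.26 in control and -1.31 in Nf1-KO skin. Krt14 went the other way in control skin without passing, at 2973, 4032 and 7161 CPM in uninjured and 8941, 7205 and 8688 in injured libraries. In Nf1-KO skin Krt14 stood at 4924, 4349 and 9426 CPM in uninjured and 4289, 6297 and 5724 in injured libraries. The sum of the 7 markers was 14551 to 24380.2 CPM in uninjured and 7631 to 14062.5 in injured libraries, and the part of keratinocyte number in the fall of Col17a1 was not tested.

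The transmembrane gene Col23a1, also known from epithelia, stood at 55.6 to 93.3 CPM in uninjured and 20.0 to 43.0 in injured libraries and fell by log2 1.46 in control (SE 0.26, edgeR adjusted p = 0.000392) and by 1.23 in Nf1-KO skin (SE 0.26, adjusted p = 0.00187). Col25a1, a neuronal collagen, stood at 3.16 to 7.83 CPM in uninjured and 0.577 to 6.02 in injured libraries and fell in control skin (log2 -2.52, edgeR adjusted p = 0.00784), while in Nf1-KO skin (-0.97, adjusted p = 0.256) library 3 held the highest injured value and without it the fall passed (-2.58, adjusted p = 0.00213). Col13a1, found at neuromuscular junctions and cell contacts, passed in neither genotype.

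FACIT genes showed both directions. Col14a1 (ENSMUSG00000022371, chromosome 15, 55307750 to 55520803), which coats dermal fibrils, stood at 6.77, 4.99 and 7.26 CPM in uninjured control, 6.36, 4.29 and 10.7 in uninjured Nf1-KO, 67.5, 114 and 124 in injured control and 152, 69.6 and 253 in injured Nf1-KO skin. It rose by log2 4.0 (SE 0.49, edgeR adjusted p = 8.47e-05) and 4.48 (SE 0.50, adjusted p = 4.14e-05) with no overlap of injured and uninjured libraries. Col12a1, a similar coat protein of fibrils under load, rose from 26.1 ± 9.78 to 223 ± 51.0 CPM in control (log2 3.09, edgeR adjusted p = 3.39e-05, n = 3) and from 27.2 ± 13.0 to 209 ± 81.2 in Nf1-KO skin (log2 2.94, edgeR adjusted p = 4.45e-05, n = 3). Col16a1 (ENSMUSG00000040690, chromosome 4, 130047840 to 130099283), the most abundant FACIT gene per kb, changed little by comparison: 92.0, 119 and 162 CPM in uninjured control, 127, 109.7 and 106 in uninjured Nf1-KO, 136, 143 and 149 in injured control and 178, 149.9 and 250.1 in injured Nf1-KO skin. Its log2 fold change was 0.20 (SE 0.23, edgeR adjusted p = 0.474) in control and 0.75 (SE 0.23, adjusted p = 0.0173) in Nf1-KO skin, the latter not passing without Nf1-KO uninjured library 2 (adjusted p = 0.0598) or Nf1-KO injured library 3 (0.0630). In control skin Col16a1 passed without control uninjured library 3 (log2 0.54, edgeR adjusted p = 0.0474). Of the type IX chains, known from cartilage, Col9a3 rose in Nf1-KO skin (log2 1.27, edgeR adjusted p = 0.0211) and had 0.90 in control skin (adjusted p = 0.0633), but it shares 234 exonic bases with opposite-strand Tcfl5, which has 655 counts to its 511. The Nf1-KO call of Col9a3 did not hold without Nf1-KO uninjured library 1 (edgeR adjusted p = 0.0508), Nf1-KO uninjured library 2 (0.104) or Nf1-KO injured library 2 (0.0734). In control skin Col9a3 passed without control uninjured library 1 (log2 1.24, edgeR adjusted p = 0.0276) or Nf1-KO injured library 1 (0.95, adjusted p = 0.0435). Col9a1 and Col9a2 passed in neither genotype, although Col9a1 fell in both without Nf1-KO injured library 3 (log2 -2.24, edgeR adjusted p = 0.0390 in control, and -4.71, adjusted p = 0.0152 in Nf1-KO skin) and in control skin without control injured library 3 (-4.91, adjusted p = 0.0283).

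Both multiplexins, basement-membrane collagens that carry sugar side chains, were higher after injury in Nf1-KO skin. Col15a1 (ENSMUSG00000028339, chromosome 4, 47208161 to 47313167), of vessels, nerves and muscle, stood at 6.68, 3.61 and 2.90 CPM in uninjured control, 6.81, 3.22 and 8.76 in uninjured Nf1-KO, 39.3, 32.2 and 37.4 in injured control and 69.2, 30.1 and 116 in injured Nf1-KO skin. It rose by log2 3.06 (SE 0.51, edgeR adjusted p = 0.000571) and 3.52 (SE 0.51, adjusted p = 0.000298), and the states did not overlap. Col18a1 (ENSMUSG00000001435, chromosome 10, 77052178 to 77166548), the precursor of endostatin, stood at 36.5, 52.0 and 137 CPM in uninjured control, 40.8, 36.6 and 93.9 in uninjured Nf1-KO, 133, 165 and 166 in injured control and 177, 185 and 277 in injured Nf1-KO skin. Control uninjured library 3 overlapped the injured control range. The log2 fold change was 1.04 (SE 0.48, edgeR adjusted p = 0.0856) in control and 1.90 (SE 0.49, adjusted p = 0.0115) in Nf1-KO skin. Without control uninjured library 3 it rose in control skin too (log2 1.91, edgeR adjusted p = 0.000787), as without Nf1-KO uninjured library 3 (1.05, adjusted p = 0.0411), and with the replicate number as a block it was 1.26 (adjusted p = 0.00193). In Nf1-KO skin the rise of Col18a1 did not pass with the ribosomal RNA-like percent in the model (log2 1.76, edgeR adjusted p = 0.0705). Muscle markers (Acta1, Myh4, Ckm, Tnnt3, Mylpf, Atp2a1) rose in the same libraries, 5 of 6 in control and 6 of 6 in Nf1-KO skin, from 103 to 980.0 CPM as a sum in uninjured to 2140.3 to 8361 in injured libraries, none at 0.

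Col26a1 and Col28a1, which fit no larger class, were low. Col26a1 (ENSMUSG00000004415, chromosome 5, 136741759 to 136883209) stood at 5.17, 3.99 and 2.02 CPM in uninjured control, 2.33, 3.68 and 3.07 in uninjured Nf1-KO, 0.800, 2.34 and 1.27 in injured control and 1.15, 1.98 and 4.30 in injured Nf1-KO skin. Groups overlapped in both genotypes, and the fall in control skin (log2 -1.31, edgeR adjusted p = 0.0475) did not pass without control uninjured library 1 (-0.90, adjusted p = 0.205) or 2, control injured library 1 or 3, or any one uninjured Nf1-KO library (adjusted p = 0.0559 to 0.154 for these). Col28a1 (ENSMUSG00000068794, chromosome 6, 7997808 to 8192617), a collagen of Schwann cell basement membranes, stood at 4.89, 4.68 and 2.46 CPM in uninjured control, 2.24, 3.22 and 2.62 in uninjured Nf1-KO, 1.51, 2.09 and 2.87 in injured control and 1.60, 4.16 and 3.61 in injured Nf1-KO skin. It passed in neither (edgeR adjusted p = 0.0982 and 0.728).

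Falls of the least expressed genes went along with a fall of the background. Of the 44 genes, 13 stayed under 1 CPM per kb of exon in every library. In at least 1 uninjured library 27 stood under 5 times the receptor background, among them Col6a6 and Col11a1, which rose. In uninjured libraries Col2a1 stood at 0.806 to 1.69 times the receptor background, Col9a1 at 0.945 to 2.42 times, Col22a1 at 0.833 to 2.23 times, Col26a1 at 2.16 to 3.19 times, and Col25a1 at 2.09 to 2.91 times. Col19a1 (3.48 to 5.84 times) and Col20a1 (2.98 to 8.91 times) were somewhat above it. These are the 6 genes that passed for a fall in control skin alone, together with Col9a1, and the part of the background in those calls was not tested. None of the 6 falls passed without control uninjured libraries 1 and 2, which leaves 1 library in that group (edgeR adjusted p = 0.108 to 0.689). Of these 6 calls, Col22a1 (log2 -3.58, edgeR adjusted p = 0.00309) and Col25a1 held in every fit that leaves out 1 library. Col2a1 held there too, but not in the fit with the rRNA-like covariate (edgeR adjusted p = 0.0568). The fall of Col20a1 did not pass without control uninjured library 1 (edgeR adjusted p = 0.0547), and that of Col19a1 (log2 -2.15, adjusted p = 0.0387) did not pass without control uninjured library 1 or 2, Nf1-KO uninjured library 1 or 2, control injured library 1 or 3 or Nf1-KO injured library 2 (adjusted p = 0.0517 to 0.105). The control fall of Col19a1 was also lost with control groups fitted alone (edgeR adjusted p = 0.0924) or the rRNA-like covariate (0.195). In Nf1-KO skin Col19a1 had log2 -2.08 (edgeR adjusted p = 0.0630). It passed there without any one of the injured control libraries or Nf1-KO injured library 3 (edgeR adjusted p = 0.00504 to 0.0401). Its Nf1-KO fall also passed with limma voom (adjusted p = 0.0095) and DESeq2 (adjusted p = 0.0161). The same held for median-of-ratios scaling (edgeR adjusted p = 0.0465), Nf1-KO groups fitted alone (0.0156) and both other filters (0.000405 and 0.0487). It did not hold for the replicate block or the rRNA-like covariate. By contrast Col17a1 stood at 623 to 3200.1 times the background in uninjured libraries, Col23a1 at 45.4 to 176 times, Col4a6 at 13.1 to 58.8 times and Col4a5 at 13.0 to 64.2 times. Col4a3, at 1.92 to 4.31 times, was in the range of the low genes.

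**Figure D4:**
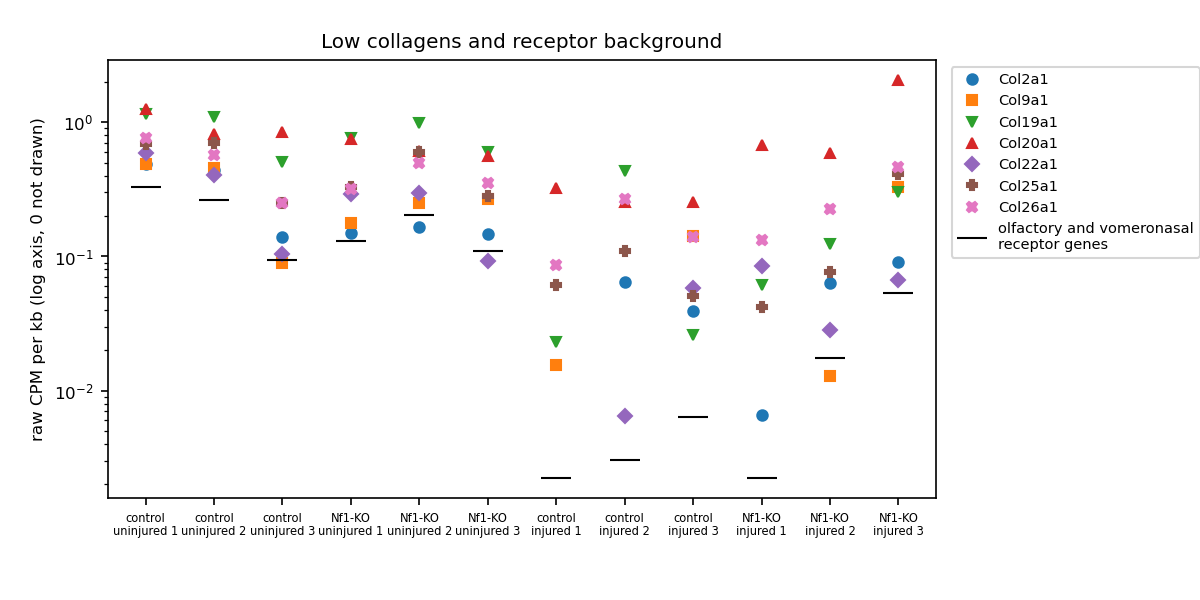
Raw CPM per kb of exon (log axis, values of 0 not drawn) of 7 low collagen genes in each library, with the level of olfactory and vomeronasal receptor genes as a black dash. The dashes lie between 0.0942 and 0.331 in uninjured and between 0.00223 and 0.0530 in injured libraries, and Col2a1, Col9a1 and Col22a1 lie near them in uninjured libraries.

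Levels of different genes were compared per kb of exon. Col17a1 had the highest level of all collagens in uninjured skin, 223 ± 64.3 CPM per kb in control and 189 ± 4.45 in Nf1-KO skin (SD, n = 3). Next in uninjured control skin were Col3a1 (79.2 ± 54.6), Col1a1 (67.8 ± 35.8) and Col1a2 (57.1 ± 21.3), which do not differ beyond their spread, then Col16a1 (18.4 ± 5.23) and Col23a1 (14.3 ± 1.89). After injury Col17a1 stood at 39.9 ± 9.31 and 28.9 CPM per kb, rank 7 in control and rank 12 in Nf1-KO skin. The leaders were then Col1a1 (358 ± 157), Col1a2 (351 ± 139.9) and Col3a1 (313 ± 201) in control and Col1a2 (416 ± 185), Col1a1 (384 ± 184) and Col3a1 (314 ± 89.9) in Nf1-KO skin, again within each other's spread, followed by Col6a1 (96.7 and 118) and Col5a1 (89.9 and 131). The order among the type I and III chains depends on the length used: per kb of the longest transcript, Col1a2 led in injured skin with 816 and 966, ahead of Col3a1 (552 and 553) and Col1a1 (397 and 425).

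Ratios between chains of the same molecule show which partners kept step, and are given as ratios of counts per kb in each library. Col4a2 to Col4a1 stayed at 0.692 to 1.06 in uninjured and 0.744 to 1.00 in injured libraries. Col1a2 to Col1a1 was 0.748 to 0.955 in uninjured and 0.928 to 1.16 in injured libraries, and within a genotype the states overlapped in control skin only. In Nf1-KO skin this ratio was 0.795 to 0.914 in uninjured and 1.05 to 1.16 in injured libraries. Its size depends on the length used, since per kb of the longest transcript it was 1.57 to 2.45. The type VI ratios did not overlap between states: Col6a3 to Col6a1 was 0.132 to 0.198 in uninjured and 0.285 to 0.393 in injured libraries, and Col6a2 to Col6a1 was 0.309 to 0.490 and 0.576 to 0.819. For type V, Col5a2 to Col5a1 was 0.329 to 0.707 in uninjured and 0.203 to 0.356 in injured libraries, where uninjured Nf1-KO library 3 was the only uninjured one within the injured range. A wide shift was seen in type VIII, with Col8a2 to Col8a1 at 2.42, 2.13 and 2.41 in uninjured control, 5.77, 2.92 and 3.10 in uninjured Nf1-KO, 0.127, 0.174 and 0.207 in injured control and 0.0499, 0.160 and 0.0575 in injured Nf1-KO skin. Across the networks of basement membrane, Col4a5 and Col4a6 together against Col4a1 and Col4a2 together stood at 0.509 to 1.07 in uninjured and 0.0162 to 0.0468 in injured libraries. Col17a1 to Col1a1, an epidermal against a dermal collagen, went from 1.91 to 5.76 in uninjured to 0.0387 to 0.158 in injured libraries.

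**Figure D5:**
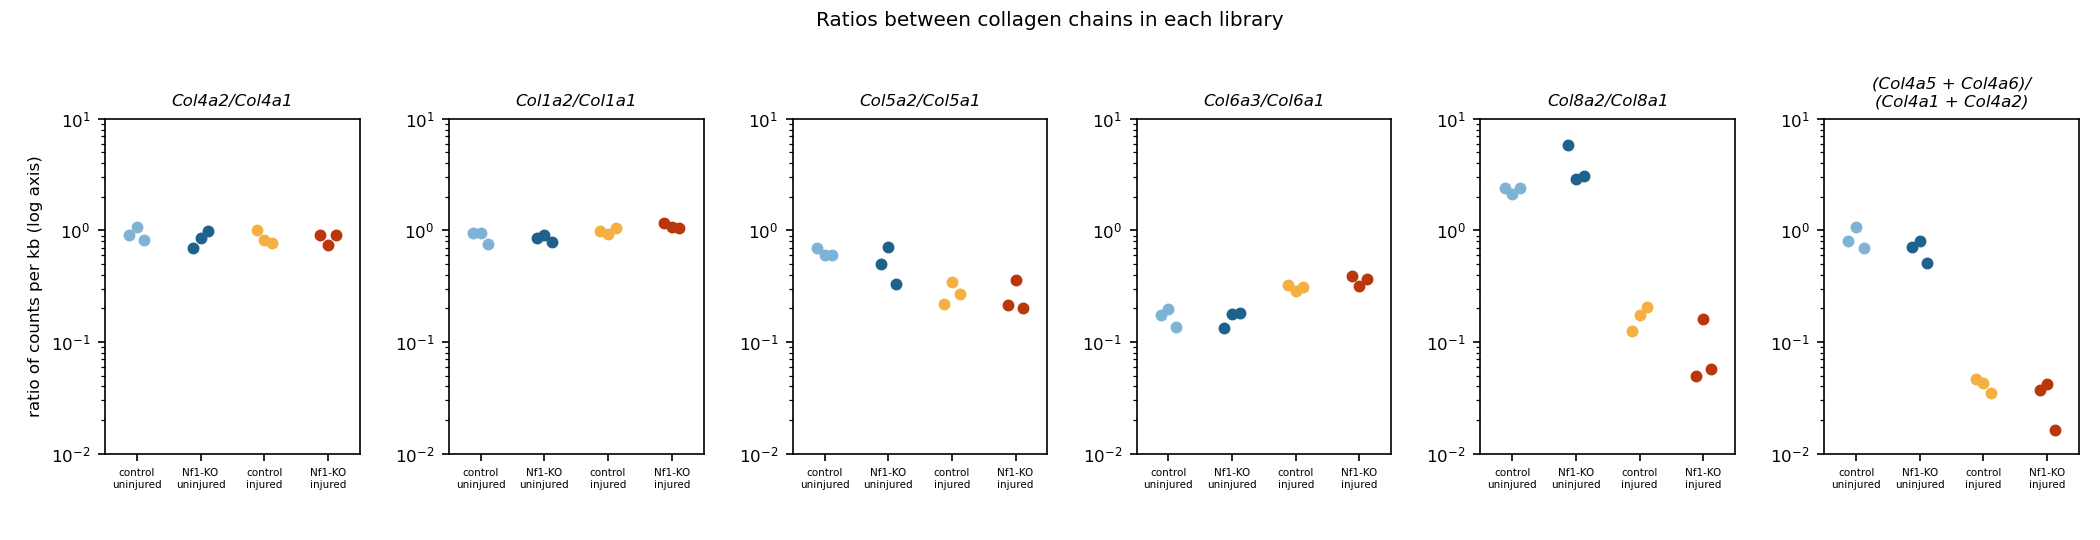
Ratio of counts per kb of exon between collagen chains in each library (log axis; points are libraries 1 to 3 of each group). Ratios of Col4a2 to Col4a1 (0.692 to 1.06) overlap between uninjured and injured libraries. Those of Col1a2 to Col1a1 (0.748 to 1.16) overlap in control skin but not in Nf1-KO skin. Ratios of Col8a2 to Col8a1 drop from 2.13 to 5.77 in uninjured to 0.0499 to 0.207 in injured libraries, and those of Col6a3 to Col6a1 are higher after injury.

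Between genotypes no collagen passed the test, in uninjured or in injured skin. In uninjured skin 0 of 44 passed in edgeR (1 at unadjusted p under 0.05, Col4a5, where 1971 of all 23635 genes tested were, and also 0 by DESeq2), against 0.0254% of all genes tested called higher and 0.00423% lower, 0.0296% in all. Col4a5 stood at 31.4 ± 7.92 CPM in control and 19.0 ± 1.89 in Nf1-KO skin (SD, n = 3, log2 -0.73, edgeR adjusted p = 0.543), and the groups did not overlap. In uninjured skin 5 genes, Col4a5, Col6a5, Col8a1, Col11a2 and Col20a1, were lower in every Nf1-KO library than in any control library and none was higher in every one (all genes tested: 6.04% and 8.79%). Over the uninjured libraries Col6a5 stood at 0.923 to 2.76 times the receptor background, Col11a2 at 1.38 to 3.08, Col20a1 at 2.98 to 8.91, Col8a1 at 3.06 to 11.6 and Col4a5 at 13.0 to 64.2 times. Control uninjured libraries 1 and 2 had the highest background, and its part in these differences was not tested. In injured skin 0 of 44 passed in edgeR, as for all genes tested (0%), and 4 of 44 had an unadjusted p under 0.05, where 2532 of all 23635 genes tested did, so the share among collagens was near that of all genes. Col4a4, Col16a1, Col18a1 and Col20a1 were higher in every injured Nf1-KO library than in any injured control one and none was lower (all genes tested: 6.37% and 2.67%). DESeq2 called 1, Col20a1, higher in Nf1-KO skin (log2 1.86, adjusted p = 0.0316).

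The 4 genes with an unadjusted edgeR p under 0.05 in injured skin were Col20a1, Col6a6, Col5a3 and Col8a1, all with a higher mean in Nf1-KO skin. Col20a1, a rarely studied FACIT gene, stood at 1.87, 1.39 and 1.47 CPM in injured control and 3.65, 3.24 and 12 in injured Nf1-KO skin (log2 1.99, SE 0.47, edgeR adjusted p = 0.346). These groups did not overlap, and library 3 held the highest value. Col20a1 shares 79 exonic bases with the same-strand transcript BX649560.1. Col6a6 had a log2 difference of 1.35 (SE 0.45, edgeR adjusted p = 0.359), Col8a1 of 1.28 (SE 0.50, adjusted p = 0.405) and Col5a3 of 0.78 (SE 0.31, adjusted p = 0.402), all with overlapping libraries. Without Nf1-KO injured library 2, Col20a1 (log2 2.22, edgeR adjusted p = 0.0433) and Col6a6 (1.67, adjusted p = 0.0496) passed. For type I the differences were small, Col1a1 0.10 (SE 0.48) and Col1a2 0.24 (SE 0.41), with errors that leave room for changes in either direction.

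The injury response itself did not differ between genotypes for any collagen in edgeR (0 of 44, as for 0% of all genes tested, with 2 at unadjusted p under 0.05, where 2541 of all 23635 genes tested were, and 0 by DESeq2). The 2 were Col20a1, whose difference of log2 fold changes was 2.47 (SE 0.64, edgeR adjusted p = 0.442), and Col8a1, with 2.11 (SE 0.75, adjusted p = 0.442). Col20a1 fell in control skin (log2 -1.48, edgeR adjusted p = 0.0132) and had 0.99 in Nf1-KO skin (adjusted p = 0.0878), where it passed as a rise without Nf1-KO injured library 1 (1.31, adjusted p = 0.0460) or 2 (1.27, adjusted p = 0.0307). For Col8a1 the mean was 3.99 ± 0.727 CPM in uninjured Nf1-KO against 7.09 ± 1.14 in uninjured control skin, and 169 ± 86.1 against 69.2 ± 50.7 after injury (SD, n = 3). Neither of these differences passed the test between genotypes. The uninjured levels of Col8a1 were 3.06 to 11.6 times the receptor background, whose part in the difference was not tested.

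Genes that make, bind or degrade collagen were examined as 3 lists, whose counts stand beside 22.8% higher and 32.5% lower among all genes tested in control skin and 19.1% and 18.4% in Nf1-KO skin. Of 28 genes for synthesis and processing, 18 rose and 2 fell in control skin and 19 rose and 2 fell in Nf1-KO skin, with median log2 fold changes of 1.20 and 1.14. Adamts2, which cuts the amino end off procollagens, rose by log2 2.42 (edgeR adjusted p = 1.2e-05) and 3.14 (adjusted p = 1.09e-06). Plod2, which hydroxylates lysines for cross-links, rose by log2 3.62 (edgeR adjusted p = 2.9e-05) and 4.88 (adjusted p = 2.62e-06). P3h2, a prolyl hydroxylase that acts on type IV collagen, went the other way (log2 -1.64 in control, edgeR adjusted p = 5.6e-05), and Bmp1, which cuts the carboxyl end, rose by log2 2.29 in Nf1-KO skin (edgeR adjusted p = 1.26e-05).

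Of 10 collagen receptors, 4 rose and 3 fell in control skin and 6 rose and 2 fell in Nf1-KO skin, with medians of 0.49 and 1.00. The receptor kinases split: Ddr2, of mesenchymal cells, rose by log2 1.37 (edgeR adjusted p = 0.00202) in control skin, and Ddr1, of epithelia, fell there (log2 -0.86, adjusted p = 0.00287) and in Nf1-KO skin (-1.17, adjusted p = 0.000546). Gp6, the platelet receptor, had 67 counts over the uninjured and 0 over the injured control libraries. It was low, at 2.92, 1.46 and 1.07 CPM in uninjured control libraries 1 to 3, and the part of the background in its fall was not tested. In Nf1-KO skin the uptake receptor Mrc2 rose by log2 2.39 (edgeR adjusted p = 0.000564), and so did the integrin chain Itga1 (log2 1.74, adjusted p = 0.000129). Of 8 degrading enzymes 7 were tested, of which 5 rose and 1 fell in control skin and 5 rose in Nf1-KO skin, with medians of 1.91 and 2.42. Smallest p-values belonged to the fibroblast protease Fap (log2 1.91 and 3.03, edgeR adjusted p = 0.000158 and 2.86e-06), the membrane metalloproteinase Mmp14 (2.28 and 2.45, adjusted p = 0.000259 and 0.000178) and the gelatinase Mmp2 (2.19 and 2.42, adjusted p = 0.000422 and 0.000266). No gene of the 3 lists passed between genotypes.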

How the data were processed

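The authors deposited raw read counts per Ensembl gene, 1 library per column per the file headers. Per the labels, RNA from the RNeasy Fibrous Tissue kit was amplified with Smart-Seq V4 from 10 ng and built with Nextera XT, which does not mark strand. Tools named in the submitters' processing notes are HOMER, DESeq2, HTSeq 0.5.3, SAMtools and STAR 2.5.2b, with build mm10. The counting annotation is not given in the sources used here, nor is its strand setting. Of 53379 gene IDs 53274 matched GENCODE M21, and 1 column of no listed sample was not used.

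All 12 libraries were fitted with edgeR 4.0.16 (R 4.3.3): TMM scaling, filterByExpr at a minimum count of 10, 4 group means, robust quasi-likelihood F tests, 2-sided, Benjamini-Hochberg adjusted over 23635 genes. The fit was also run on simulated data in which few genes changed. That run cannot check scaling or error under a change as broad as the one with injury. Levels per kb use union exonic length. No member was left out for low values. Given per library are types I, III, V, VI (alpha1 to alpha3), VII, XVII, Col4a1 and Col4a2, and per type the most abundant member and the one with the largest change; other members named with values were picked later. From the other lists, up to 3 called genes with the smallest p are named in each injury comparison. The members and lists were chosen with earlier results of these data known. Chi-square per degree of freedom between libraries of a group was 9.55 to 87.8, more than sequencing 1 library again would give. It cannot tell whether libraries of a group share an animal or an RNA sample. A planned description of protein sequences was not made. A further list of cell markers is not reported here. Alternatives were median-of-ratios scaling, other filters, a replicate block, groups alone, limma voom (3.58.1), DESeq2 (1.42.0), a ribosomal RNA-like covariate, and libraries left out.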

Additional observations from a re-analysis of the deposited data

How the results depend on the processing

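No called collagen reversed its direction. Values that passed no test could change sign with 1 library left out, such as Col7a1 (-0.45 to 0.38) with injury in Nf1-KO skin, Col6a5 (-0.28 to 0.33) with injury in control skin, and Col1a1 (-0.40 to 0.47) and Col1a2 (-0.21 to 0.55) between genotypes in injured skin. After control uninjured libraries 1 and 2 were left out, 10 collagens rose and 4 fell with injury in control skin, where 17 and 11 did with all libraries. The uninjured control group is then 1 library, assumed to vary like the other groups. 10 of the 17 rises and 4 of the 11 falls in control skin, and 16 of the 21 rises and 3 of the 5 falls in Nf1-KO skin, were kept under every alternative run. With 1 library left out, the counts were 16 to 20 up and 7 to 12 down in control skin (7 without control uninjured library 1) and 18 to 22 up and 3 to 7 down in Nf1-KO skin (3 without Nf1-KO injured library 1). Between genotypes in injured skin, 2 collagens were called higher with no filter (Col6a6 and Col20a1), 1 with DESeq2, and 0 to 2 with 1 library left out. The difference between injury responses had 1 call with no filter (Col20a1, log2 2.30, edgeR adjusted p = 0.0470). With protein-coding, non-mitochondrial genes as the denominator, the share of counts on all 44 collagens moved by less than 1 SD in each group. A mean of 3 libraries cannot move by 1 SD when 1 of them is left out, so that alternative says nothing of the share's stability.

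Over all genes, those called higher and lower with injury in control skin numbered 5393 and 7679, and 2420 and 3744 without the 2 libraries. Lower calls were 12865 with no filter and 12165 with DESeq2, and with 1 library left out the counts were 4259 to 5892 and 6627 to 9057. In Nf1-KO skin 4345 genes fell, 2520 with the rRNA-like covariate, and with 1 library left out 2997 to 4853 rose and 2307 to 5959 fell. Of the calls with DESeq2, 29.9% were higher in control and 39.9% in Nf1-KO skin (41.3% and 50.9% in edgeR). Median-of-ratios scaling moved the median of all genes by -0.11 on the log2 scale for injury in Nf1-KO skin. Between genotypes in uninjured skin, 6 genes were higher and 1 lower, and the counts were 170 and 49 with no filter, 35 and 25 with DESeq2, 19 and 8 with the groups alone, 2 and 4 without the 2 libraries, 2 and 0 with a filter of 2 CPM in 3 samples and 1 and 0 with the replicate block. They were 3 higher with median-of-ratios scaling, 1 higher with limma voom, and 0 to 11 and 0 to 2 with 1 library left out. In injured skin no gene was called, but 284 and 126 with no filter, 50 and 58 with DESeq2, 1 higher with voom and 1 with the covariate, and 0 to 54 and 0 to 37 with 1 library left out. For the difference between responses there were 136 and 100 calls with no filter, 7 and 30 with DESeq2, 1 and 2 with the covariate, 1 and 1 without the 2 libraries, and 0 to 1 and 0 to 3 with 1 library left out. The cause of these shifts was not tested.

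Replicate numbers are not said in the labels to pair libraries across groups. Of 18 pairs with the same number in different groups 4 had deviations correlated above 0.1 (r from -0.42 to 0.38), and 0 of 12 libraries correlated best with its own number in every other group. Such correlations rest on 3 libraries a group and cannot exclude pairing. With the replicate block, Col7a1 (log2 0.75, edgeR adjusted p = 0.0146) and Col18a1 (1.26, adjusted p = 0.00193) also rose in control skin, and the block changed no other collagen call. Without molecular identifiers, the counts of the lowest genes carry counting error that cannot be separated from amplification.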
